A study of Mus musculus with 15 samples.

Results

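Pyruvate dehydrogenase kinases and phosphatases were described in 15 mouse liver arrays. The 6 genes were Pdk1, Pdk2, Pdk3, Pdk4, Pdp1 and Pdp2, taken by name among 19938 genes whose probe sets carried exactly 1 gene symbol. Each of the 6 had 1 such probe set, so no choice between probe sets was needed. The series measured liver mRNA of mice with and without the nuclear receptor PPARα after di(2-ethylhexyl) phthalate (DEHP), a plasticizer whose metabolites activate that receptor. The groups were null mice on DEHP (3), null mice on corn oil (4), wild-type mice on DEHP (4) and wild-type mice on corn oil (4), each animal with an array of its own. Mice were males of 7.5 months (± 2.5 weeks), dosed by gavage on 4 days with DEHP at 1150 mg/kg/day in corn oil, or with the oil alone. Null mice were 129S4/SvJae-Pparatm1Gonz/J and wild-type mice 129S1/SvlmJ, both bought from The Jackson Laboratory and kept as a colony on the 129/Sv background. The null allele is carried in every tissue, and substrain and genotype cannot be told apart in these animals.

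The pyruvate dehydrogenase complex of mitochondria turns pyruvate into acetyl-CoA and so commits carbohydrate carbon to oxidation or to fatty acid synthesis. The kinases encoded by Pdk1 to Pdk4 phosphorylate the decarboxylase subunit and switch the complex off, and the phosphatases encoded by Pdp1 and Pdp2 remove the phosphate and switch it on. Pdk4 is the kinase known for induction by fasting, fatty acids, glucocorticoids and PPAR agonists, in liver as in muscle and heart, whereas Pdk2 is the broadly expressed kinase of liver.

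The promoters of Pdk4 and Pdk2 are shown because these are the kinase genes best known from liver, and because Pdk4 was the member whose mRNA differed between groups. RefSeq (GRCm38.p6) gave 7 windows of 250 bases before the start of 5 of the 6 genes, and none was given for Pdp1. Both sequences run 5′ to 3′ on the minus strand of the chromosome, and capitals mark a CCAAT box, which reads ATTGG where it lies on the opposite strand of the printed one.
Pdk4, chr6:5496279-5496528: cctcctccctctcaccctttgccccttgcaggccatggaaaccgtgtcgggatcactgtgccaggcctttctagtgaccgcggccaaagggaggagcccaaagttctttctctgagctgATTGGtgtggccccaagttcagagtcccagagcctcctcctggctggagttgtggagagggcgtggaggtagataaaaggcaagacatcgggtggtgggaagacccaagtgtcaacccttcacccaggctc
Pdk2, chr11:95041372-95041621: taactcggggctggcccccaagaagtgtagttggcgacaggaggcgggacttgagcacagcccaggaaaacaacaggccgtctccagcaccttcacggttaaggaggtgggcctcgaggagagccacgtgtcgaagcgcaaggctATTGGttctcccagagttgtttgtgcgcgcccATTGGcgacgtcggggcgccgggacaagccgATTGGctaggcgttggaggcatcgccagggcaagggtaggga
The Pdk4 window held 1 CCAAT box, beginning at position -131 from the start, and this Pdk2 window held 3, beginning at -105, -73 and -42. CCAAT (either strand) was also in the Pdk3 window, once, and in the Pdp2 window, in 2 places, and it occurred in 33.8% of 32851 RefSeq windows of this length. The GC box GGGCGG was found in 1 of the 2 Pdk1 windows and in the Pdk3 and Pdp2 windows, against 32.7% of all windows. Searched on both strands, the nuclear receptor half-site AGGTCA (14.0% of all windows), its direct repeat with 1 free base between the copies (0.0335%), the forkhead sequence TGTTTAC (3.17%) and TATAAA (12.4%) had 0 matches in the 7 windows, which says only that these letters do not occur there. The half-site lies within the direct repeat, and no other pair of these motifs overlaps by construction.

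All values are array intensities as deposited, on a linear scale already common to the arrays, whose medians ran from 44.4 to 47.5. Differences are given as log2 of the first-named over the second-named group ± standard error from limma. The p was adjusted by Benjamini-Hochberg across the 19938 genes, and rises and falls are named only below an adjusted p of 0.05. A level of whole-liver mRNA cannot tell fewer cells of a type from less RNA per cell. Summed hepatocyte markers (5 genes) ran from 61951 to 65557 in null DEHP livers, from 59956 to 65650 in null corn oil livers, from 59410 to 61444 in wild-type DEHP livers and from 63378 to 65794 in wild-type corn oil livers. Summed adipocyte markers ran from 145 to 214 and lymphocyte markers (4 genes) from 106 to 166 over all arrays, with overlap between groups. Kupffer cell markers summed to 1192 to 1481 in null DEHP, 1129 to 1520 in null corn oil, 882 to 1410 in wild-type DEHP and 1022 to 1191 in wild-type corn oil livers, and cholangiocyte markers (4 genes) reached 440 in the wild-type DEHP group, against at most 285 in any other. Ppara, the disrupted gene, read 0.641-fold in null over wild-type mice under DEHP (-0.64 ± 0.13, adjusted p = 0.00422) and 0.619-fold under corn oil (-0.69 ± 0.12, adjusted p = 0.00645), with no overlap between genotypes. The stretch of Ppara that this probe set reads, and whether the null allele removes it, is not stated in the sources used here.

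Of the null DEHP arrays, 1 stood apart from the rest of the series. Array KO-121 had a summed intensity of 2509 over 5 skeletal muscle markers, against 231 to 271 in the other 14 arrays, with Acta1 at 1411 (78.4 to 103 elsewhere), Tnnt3 at 522 (43.4 to 61.4) and Ckm at 423 (43.8 to 55.8). Pdk4 and Pdp1, which muscle also expresses, had their highest value of all 15 arrays in that animal. Differences of the 6 genes that use it are therefore given with and without it, and the part of muscle RNA in them was not tested.

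**Figure D1:**
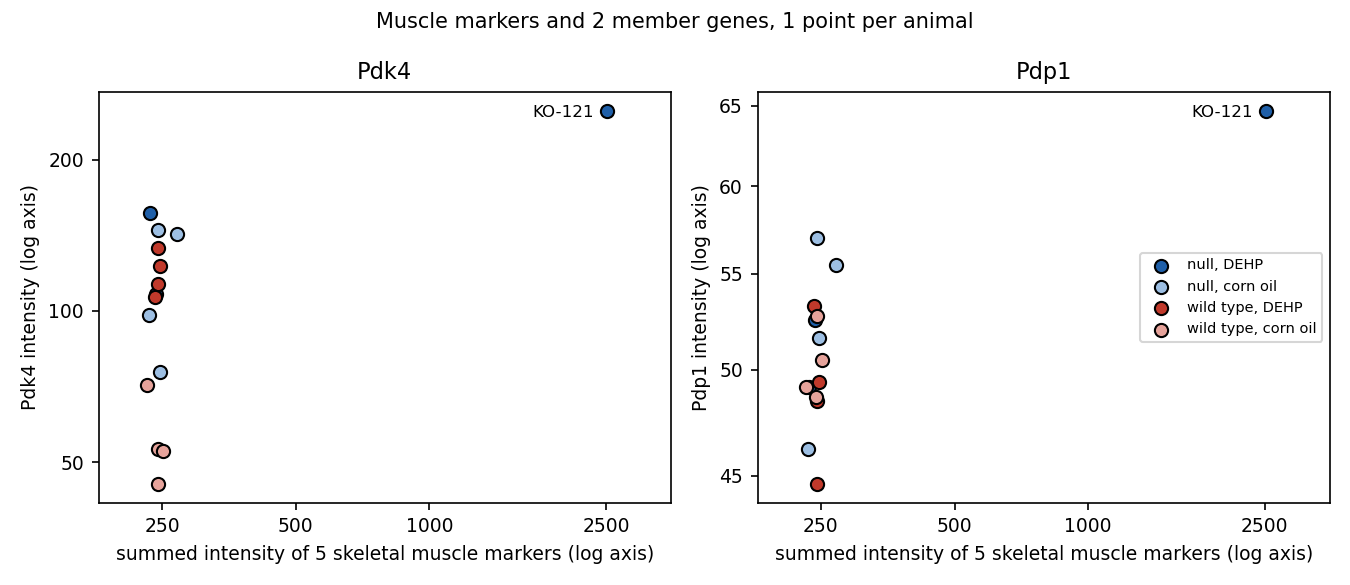
Intensity of Pdk4 (left) and Pdp1 (right) on the vertical axes against the summed intensity of 5 skeletal muscle markers, both axes logarithmic and 1 point per animal, coloured by group. KO-121 lies at 2509 on the horizontal axis with the highest Pdk4 (251) and Pdp1 (64.7), while the other 14 animals lie between 231 and 271.

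Pdk4 mRNA was lowest in wild-type livers given corn oil and was about 2-fold higher both with DEHP in wild-type mice and without PPARα in mice given corn oil. Null DEHP livers read 251 (KO-121), 108 (KO-122) and 157 (KO-123). Null corn oil livers read 145, 75.5, 142 and 98.2. Wild-type DEHP livers read 122.6, 113, 107 and 133, and wild-type corn oil livers 71.1, 53.1, 52.5 and 45.2. All 11 livers that had DEHP, the null genotype or both thus lay above the 4 wild-type corn oil livers, by the narrowest margin in null corn oil animal KO-116 (75.5 against 71.1 in WT-52). The share of all genes with this pooled pattern was not counted, so the pattern is only a description. The log2 means ± SD were 7.34 ± 0.61 (n = 3) in null DEHP, 6.80 ± 0.45 (n = 4) in null corn oil, 6.89 ± 0.14 (n = 4) in wild-type DEHP and 5.77 ± 0.27 (n = 4) in wild-type corn oil livers. From high to low the groups stood as null DEHP, wild-type DEHP, null corn oil and wild-type corn oil. The first steps of this order, 0.45 and 0.09 on the log2 scale, were smaller than the larger SD of the groups they join (0.61 and 0.45), and their ranges overlapped, whereas the last step, 1.02, separated ranges without overlap.

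**Figure D2:**
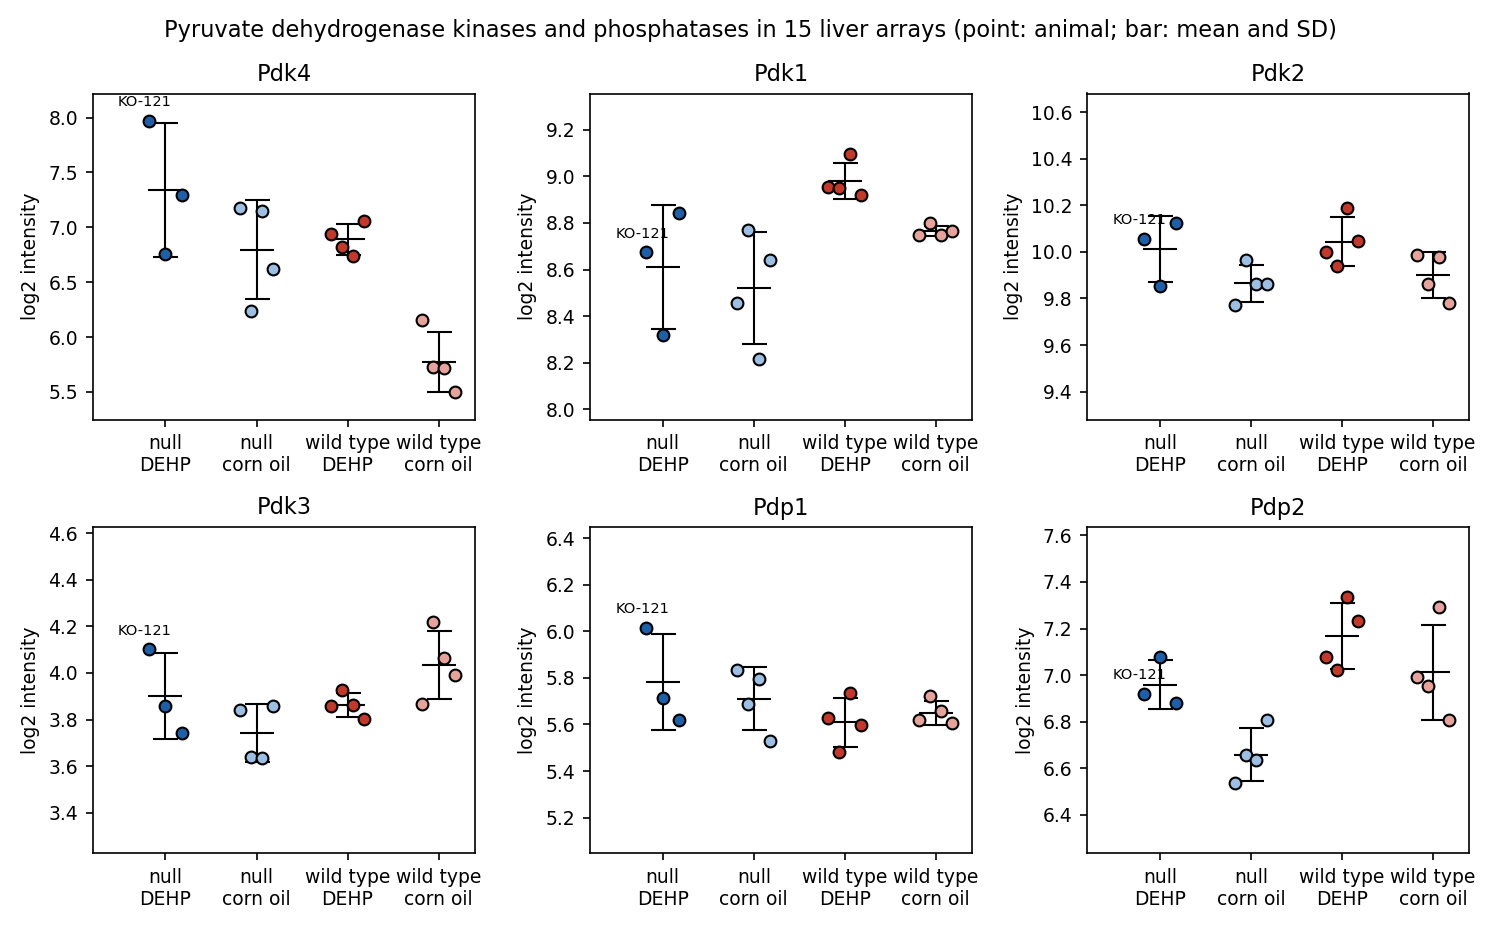
Log2 intensity of the 6 genes in each liver, 1 panel per gene with its own vertical range, 1 point per animal, and the mean with SD per group. Pdk4 is lowest in the 4 wild-type corn oil livers, and KO-121 is labelled in the null DEHP group.

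In wild-type mice Pdk4 rose 2.17-fold with DEHP (1.12 ± 0.23, 95% interval 0.62 to 1.61, adjusted p = 0.0127, n = 4 against 4). The DEHP livers (107 to 133) did not overlap the corn oil livers (45.2 to 71.1), and an exact two-sided permutation test over the 70 splits gave p = 0.0286, the smallest it can give. It was the 1 member called of 6 in this contrast, in which 3.86% of all genes were called and 2.29% were called as higher, while 6.1% had no overlap with DEHP higher. The call held in all 16 alternatives run, at adjusted p from 0.0017 to 0.0463. Of the cell type marker sums, 4 separated these groups without overlap. Neutrophil markers summed to 198 to 250 in DEHP and 132 to 159 in corn oil livers, which came from S100a8 (1.78, adjusted p = 0.00061), while the other 4 markers were not called and read from -0.17 (Ly6g) to 0.15 (S100a9). Erythrocyte markers (2 genes) summed to 943 to 1456 in DEHP and 1522 to 1544 in corn oil livers, with neither called (Alas2 -0.43, Slc4a1 0.05). Endothelial markers summed to 1112 to 1260.9 in DEHP and 1261.5 to 1466 in corn oil livers, with 1 of 5 called (Stab2, -0.33, adjusted p = 0.00337), and the hepatocyte sums given above also separated, with 1 of 5 called (Cps1, -0.34, adjusted p = 0.0190). The part of these in the Pdk4 difference was not tested.

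Without the receptor, Pdk4 in DEHP livers averaged 1.46-fold the level in corn oil livers (0.54 ± 0.25, 95% interval 0.01 to 1.08), which was not called (adjusted p = 0.396, n = 3 against 4). The ranges overlapped, with 108 to 251 in DEHP and 75.5 to 145 in corn oil livers, and the exact permutation p over 35 splits was 0.257. Without KO-121 the difference was 0.23 (adjusted p = 0.804), and without KO-122 it was 0.83 (adjusted p = 0.282), within a range of 0.248 to 0.804 for the adjusted p over 15 alternatives. In this contrast 0 of 6 members were called, against 0.471% of all genes.

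The DEHP response of Pdk4 was not shown to differ between genotypes. The difference of the differences, null minus wild type, was -0.57 ± 0.34 (95% interval -1.30 to 0.15, adjusted p = 0.515), and -0.89 without KO-121 (adjusted p = 0.199, the lowest of 22 alternatives, which reached 0.809). For all genes 0.898% were called in that test, and 0 of the 6 members.

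Between genotypes, Pdk4 was 2.03-fold higher in null than in wild-type livers under corn oil (1.02 ± 0.23, 95% interval 0.53 to 1.52, adjusted p = 0.0433, n = 4 against 4). The null livers (75.5 to 145) did not overlap the wild-type livers (45.2 to 71.1), and the exact permutation p was 0.0286, the smallest possible. Here 1 of 6 members was called, against 1.19% of all genes (0.642% as higher), and 4.06% had no overlap with null higher. This call lay close to the threshold: it held in 6 of 16 alternatives, at adjusted p from 0.0159 to 0.135, and was lost on leaving out KO-115, KO-117, KO-118, WT-53, WT-54 or WT-55. It shares its 4 wild-type corn oil livers with the DEHP contrast of wild-type mice, so the 2 rises have the same low group on one side. Summed stellate cell markers were 888 to 1298 in null corn oil livers and 745 to 839 in wild-type corn oil livers, with 0 of 5 markers called, and their part in the difference was not tested.

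Under DEHP the genotypes overlapped for Pdk4. Null livers (108 to 251) stood at 1.37-fold the wild-type livers (107 to 133), a difference of 0.45 ± 0.25 (95% interval -0.08 to 0.98) that was not called (adjusted p = 0.318, exact permutation p = 0.171, n = 3 against 4). Without KO-121 the difference was 0.13 (adjusted p = 0.833, in a range of 0.106 to 0.833 over 15 alternatives). In this contrast 10.7% of all genes and 0 of 6 members were called.

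**Figure D3:**
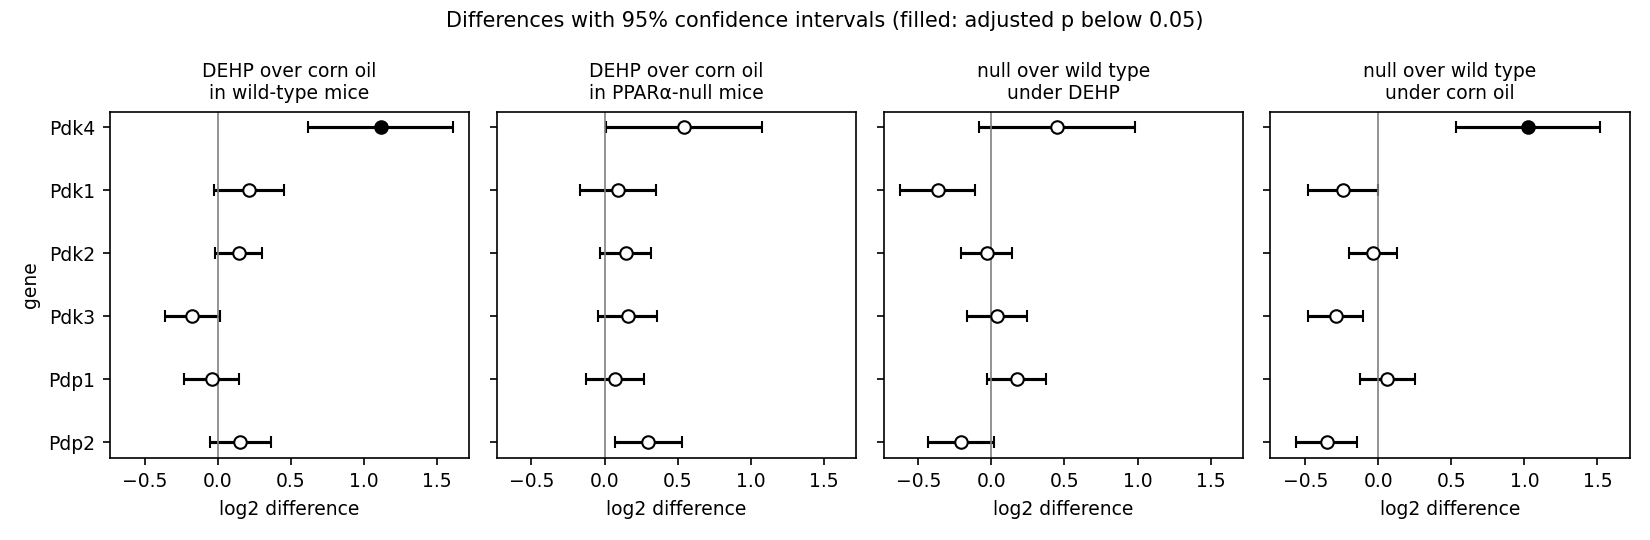
Log2 differences of the 6 genes in 4 contrasts with 95% confidence intervals, filled where the adjusted p was below 0.05. Filled points are those of Pdk4 for DEHP over corn oil in wild-type mice (1.12) and for null over wild type under corn oil (1.02).

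Pdk1, a kinase best known as a target of hypoxia-inducible factor, had its lower means in null livers, but no difference of it was called. It read 408, 319 and 459 in null DEHP livers and 351, 437, 298 and 399 in null corn oil livers. In wild-type livers it read 497, 494, 547 and 485 with DEHP and 430, 445, 430 and 435 with corn oil. Every null DEHP liver was below every wild-type DEHP liver, and the wild-type DEHP livers were all above the wild-type corn oil livers.

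Under DEHP the null over wild-type difference of Pdk1 was -0.37 ± 0.12 (0.775-fold, 95% interval -0.63 to -0.11), just short of a call at an adjusted p of 0.067 (exact permutation p = 0.0286, the smallest possible). Its adjusted p ran from 0.0275 to 0.348 over 15 alternatives, of which 5 called it, among them the fit without KO-123. Of all genes 20.5% had no overlap between these groups, 9.51% with null lower. Summed endothelial markers were 1528 to 1640 in null DEHP and 1112 to 1261 in wild-type DEHP livers, and 4 of the 5 were called as higher in null livers. Stellate cell markers (831 to 1307 in null DEHP, 635 to 814 in wild-type DEHP livers), erythrocyte markers (1548 to 1927 in null DEHP, 943 to 1456 in wild-type DEHP livers) and the hepatocyte sums did not overlap either, with 1 of 5 (Reln), 1 of 2 (Alas2) and 0 of 5 called. The part of these markers in the Pdk1 difference, or in any other difference between these groups given here, was not tested. In wild-type mice the DEHP difference was 0.21 ± 0.11 (95% interval -0.02 to 0.45, adjusted p = 0.366, exact permutation p = 0.0286), in a contrast where 11.9% of all genes had no overlap between groups. Under corn oil, null over wild type was -0.24 ± 0.11 (adjusted p = 0.406) with overlapping ranges, and DEHP in null mice gave 0.09 ± 0.12 (95% interval -0.17 to 0.35, adjusted p = 0.841). Without KO-121 null over wild type under DEHP was -0.40 and the null DEHP difference 0.06. The difference of the differences was -0.12 (95% interval -0.48 to 0.23, adjusted p = 0.812), and -0.16 without KO-121. SDs on the log2 scale were 0.27 in null DEHP, 0.24 in null corn oil, 0.08 in wild-type DEHP and 0.02 in wild-type corn oil livers.

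Pdk2, the broadly expressed kinase, showed no called difference in any contrast. Its intensity was 924 to 1116 in null DEHP, 874 to 999 in null corn oil, 982 to 1167 in wild-type DEHP and 880 to 1014 in wild-type corn oil livers, and each pair of neighbouring groups overlapped. DEHP over corn oil was 0.15 ± 0.08 in null mice (95% interval -0.03 to 0.32, adjusted p = 0.511) and 0.14 ± 0.08 in wild-type mice (95% interval -0.02 to 0.31, adjusted p = 0.376). Null over wild type was -0.03 under DEHP (adjusted p = 0.872) and -0.04 under corn oil (adjusted p = 0.912). The difference of the differences was 0.00 (95% interval -0.24 to 0.24, adjusted p = 0.995). Without KO-121 it was -0.02, the null DEHP difference 0.12 and null over wild type under DEHP -0.06.

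Pdk3, a kinase of low liver expression, gave a dim signal, below the array medians in each of the 15 livers. It read 17.2, 14.5 and 13.4 in null DEHP livers, 14.3, 12.5, 12.4 and 14.5 in null corn oil livers, 14.5, 15.2, 14.6 and 14.0 in wild-type DEHP livers and 14.6, 18.6, 16.7 and 15.9 in wild-type corn oil livers. Under corn oil each null liver was below each wild-type liver (-0.29 ± 0.09, 0.817-fold), which was not called (adjusted p = 0.146, exact permutation p = 0.0286). For comparison 7.72% of all genes had no overlap between these groups, 3.67% with null lower. The DEHP differences were 0.16 ± 0.10 in null mice (adjusted p = 0.548) and -0.17 ± 0.09 in wild-type mice (adjusted p = 0.353). The difference between these was 0.33 ± 0.13 (95% interval 0.05 to 0.61, adjusted p = 0.271). KO-121 had the highest Pdk3 of the null livers, and without it the null DEHP difference was 0.06 and the difference of differences 0.23. Null over wild type under DEHP was 0.04 (adjusted p = 0.873), and -0.06 without KO-121.

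Pdp2, the phosphatase known to fall with starvation in rat heart and kidney, was lowest in null livers given corn oil. It read 121.2, 135 and 117.8 in null DEHP livers and 92.8, 100.9, 99.4 and 112 in null corn oil livers, so that each DEHP liver was above each corn oil liver. Wild-type DEHP livers read 135, 130, 162 and 150 and wild-type corn oil livers 127, 124, 157 and 112, with overlap. DEHP over corn oil was 0.30 ± 0.11 in null mice (1.23-fold, 95% interval 0.07 to 0.53), which was not called (adjusted p = 0.230, exact permutation p = 0.0571). Without KO-121 it was 0.32. No overlap, with DEHP higher, was seen in 5.57% of all genes between these groups. In wild-type mice the DEHP difference was 0.16 ± 0.10 (95% interval -0.06 to 0.37, adjusted p = 0.480), and the difference of the differences was 0.15 (adjusted p = 0.732), and 0.16 without KO-121. Endothelial markers summed to 1528 to 1640 in null DEHP and 1381 to 1505 in null corn oil livers, with 0 of 5 called, and their part in the Pdp2 difference was not tested.

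Between genotypes Pdp2 was 0.783-fold in null over wild-type livers under corn oil (-0.35 ± 0.10, 95% interval -0.56 to -0.14), and the adjusted p of 0.110 did not pass. Ranges met at their ends, with 92.8 to 112.07 in null and 112.05 to 157 in wild-type livers. Under DEHP the difference was -0.21 ± 0.11 (adjusted p = 0.267), and -0.19 without KO-121.

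Pdp1, the calcium-sensitive phosphatase best known from muscle and heart, showed no called difference in any contrast. It read 64.7, 52.5 and 49.1 in null DEHP, 56.97, 51.6, 55.5 and 46.2 in null corn oil, 49.4, 44.6, 53.3 and 48.5 in wild-type DEHP and 49.1, 52.7, 50.5 and 48.7 in wild-type corn oil livers. KO-121 was the high value, and the groups overlapped throughout. DEHP over corn oil was 0.07 ± 0.10 in null mice (95% interval -0.13 to 0.27, adjusted p = 0.838) and -0.04 without KO-121. In wild-type mice it was -0.04 ± 0.09 (95% interval -0.23 to 0.15, adjusted p = 0.881). The difference of the differences was 0.11 (adjusted p = 0.771), and -0.0039 without KO-121. Null over wild type was 0.17 under DEHP (adjusted p = 0.307), or 0.06 without KO-121, and 0.06 under corn oil (adjusted p = 0.857).

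No gene of the complex that these enzymes regulate was called with DEHP. Of its 5 subunit genes (Pdha1, Pdhb, Dlat, Dld and Pdhx), 0 were called with DEHP in null mice (median -0.08) or in wild-type mice (median 0.09), where the medians of all genes were 0.01 and -0.01. Of all genes 0.471% were called in null and 3.86% in wild-type mice, so 0 of 5 does not set the complex apart. Dlat, the acetyltransferase core, read 0.20 ± 0.08 in wild-type mice (adjusted p = 0.232), and Pdha1, the decarboxylase subunit that the kinases phosphorylate, 0.04 (adjusted p = 0.807). Under DEHP, 2 of 5 were lower in null than in wild-type livers, where 5.61% of all genes were called as lower. Named after their values were seen, these were Dld (-0.33 ± 0.09, adjusted p = 0.0276), the dihydrolipoamide dehydrogenase, and Pdhx (-0.29 ± 0.06, adjusted p = 0.00799), which anchors that enzyme in the complex. Leaving out KO-122 ended both calls, and WT-56 or WT-59 that of Dld. Under corn oil 0 of 5 differed (median -0.06), against 1.19% of all genes. Pdpr, the regulatory subunit of the phosphatase, read 0.01 with DEHP in wild-type mice (adjusted p = 0.959).

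The sister complexes, which oxidize branched-chain 2-oxo acids and 2-oxoglutarate, had 2 of 5 genes called with DEHP in wild-type mice, against 3.86% of all genes. Their acyltransferase cores moved in opposite directions: Dlst, of the 2-oxoglutarate complex, rose by 0.28 ± 0.07 (adjusted p = 0.0439), and Dbt, of the branched-chain complex, fell by 0.33 on the log2 scale (SE 0.08, adjusted p = 0.0261). Each call held in 2 of 8 fits that left out 1 animal, with adjusted p up to 0.116 for Dlst and 0.0737 for Dbt. In null mice 0 of 5 were called, where 0.471% of all genes were called. The kinase and phosphatase of the branched-chain complex read 0.01 (Bckdk, adjusted p = 0.964) and -0.06 (Ppm1k, adjusted p = 0.797) in wild-type mice, and 0 of these 2 genes were called in null mice. Between genotypes under DEHP, 3 of the 5 complex genes were called, against 10.7% of all genes, and they are named here after their values were seen. Dbt was higher in null than in wild-type livers (0.39 ± 0.08, adjusted p = 0.00682), and Bckdha, the branched-chain decarboxylase subunit, and Dlst were lower (-0.23 ± 0.06, adjusted p = 0.0260, and -0.29 ± 0.08, adjusted p = 0.0280). Ppm1k was also higher in null livers (0.29 ± 0.09, adjusted p = 0.0486), and Bckdk was not called (0.08, adjusted p = 0.494). Of 7 fits that left out 1 animal, the Dbt call held in 7, that of Dlst in 4, that of Ppm1k in 3 and that of Bckdha in 2, and without KO-121 the adjusted p was 0.0572 for Dlst and 0.0563 for Bckdha. Under corn oil 0 of 5 and 0 of 2 differed, against 1.19% of all genes. Of 3 genes that attach lipoic acid to such complexes 0 were called with DEHP in either genotype, and Lias and Lipt1 read 0.25 (adjusted p = 0.107) and 0.21 (adjusted p = 0.295) in wild-type mice. Under DEHP both were lower in null than in wild-type livers, where 5.61% of all genes were called as lower. Lias read -0.30 ± 0.09 (adjusted p = 0.0362) and Lipt1 -0.45 ± 0.11 (adjusted p = 0.0116), and without KO-121 the count was 1 of 3. The Lias call held in 1 of 7 fits that left out 1 animal, and the Lipt1 call in 6 of 7 (not without KO-122).

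Among 10 measured genes that supply or use pyruvate, 1 changed with DEHP in wild-type mice, where 3.86% of all genes were called. Pklr, the liver pyruvate kinase that makes pyruvate, averaged 874 in DEHP and 1806 in corn oil livers (0.484-fold, -1.05 ± 0.15, adjusted p = 0.000837). In null livers Pklr averaged 1909 with DEHP and 1864 with corn oil (0.08 ± 0.16, adjusted p = 0.898), and the 2 responses differed by 1.13 ± 0.22 (adjusted p = 0.0245, and up to 0.0599 when 1 animal was left out, with 9 of 15 such fits below the threshold). Without KO-121 these were 0.04 in null mice (adjusted p = 0.972) and 1.08 for the difference of the responses (adjusted p = 0.0453). With all 15 arrays and p adjusted over all probe sets, the difference of the responses was not called (adjusted p = 0.0635). Pklr thus fell in the same wild-type livers in which Pdk4 rose, and with DEHP in null livers neither gene was called.

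Of 10 known transcriptional regulators of Pdk4, 1 rose and 1 fell with DEHP in wild-type mice (3.86% of all genes were called), and 0 were called in null mice (0.471% of all genes). Pparg, which encodes the related receptor PPARγ, averaged 235 in null DEHP, 226 in null corn oil, 146 in wild-type DEHP and 102 in wild-type corn oil livers. It rose with DEHP in wild-type mice (0.51 ± 0.12, adjusted p = 0.0199) and was 2.20-fold higher in null than in wild-type livers under corn oil (1.14 ± 0.12, adjusted p = 5.28e-05). Its DEHP difference in null mice was 0.06 (adjusted p = 0.897). Pparg and Pdk4 were thus both called as higher in these 2 contrasts, which share the wild-type corn oil livers. For null over wild type under DEHP, Pparg read 0.69. Pdk4 read 0.45 there and was not called (adjusted p = 0.318), and 0.13 without KO-121. Foxo1, which encodes the fasting-activated forkhead factor, fell by 0.27 on the log2 scale with DEHP in wild-type mice (SE 0.07, adjusted p = 0.0351) and read -0.06 in null mice (adjusted p = 0.823). Of these 10 genes, 3 were higher and 1 lower in null than in wild-type livers under DEHP (2 and 1 without KO-121), and 1 was higher and 1 lower under corn oil. The lower gene was in each case Ppara, the disrupted gene itself, and the higher gene under corn oil was Pparg. Of all genes 10.7% were called between genotypes under DEHP and 1.19% under corn oil. In the wild-type DEHP contrast the Pparg call held in 3 of 8 fits that left out 1 animal (adjusted p up to 0.0732) and the Foxo1 call in 1 of 8 (up to 0.117).

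Fatty acid oxidation and ketone body genes, the textbook companions of Pdk4 as PPARα targets, were set beside it in both contrasts. Of 16 measured genes 12 rose and 0 fell with DEHP in wild-type mice, with a median of 0.61 (2.29% of all genes were called as higher). They included the peroxisomal enzyme Ehhadh (2.92 ± 0.15), the fatty acid hydroxylases Cyp4a14 (4.97 ± 0.44) and Cyp4a10 (3.07 ± 0.21), and the mitochondrial trifunctional enzyme subunit Hadhb (0.70 ± 0.08). In null mice 0 of 16 were called (median 0.10), where 0.471% of all genes were called. For 8 of 16 the response differed between genotypes, or 7 without KO-121, against 0.898% of all genes. Under corn oil 8 of 16 were lower in null than in wild-type livers and 0 were higher, with a median of -0.66 (0.547% of all genes were called as lower), for example Cyp4a10 (-3.43 ± 0.21, adjusted p = 2.77e-07) and Hadhb (-0.35 ± 0.08, adjusted p = 0.0428, a call that held in 1 of 8 fits without 1 animal). There Pdk4 read 1.02, and 3 of the 16 genes had a difference above 0, of which none was called: Cpt1a, Acadm and Acot2.

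**Figure D4:**
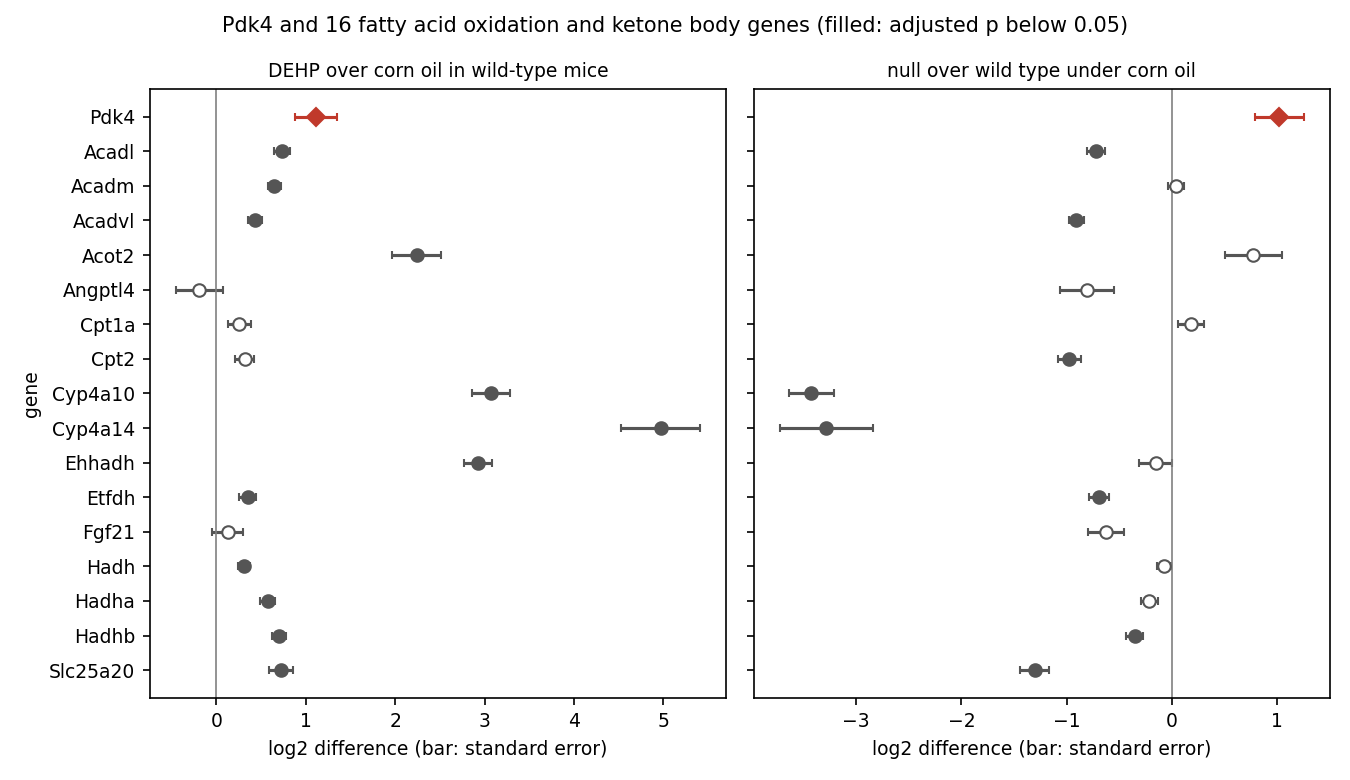
Log2 difference ± standard error of Pdk4 (diamond) and 16 fatty acid oxidation and ketone body genes (circles) for DEHP over corn oil in wild-type mice (left) and null over wild type under corn oil (right), filled where the adjusted p was below 0.05. On the left 12 of 16 circles are filled and above 0, as is Pdk4, and on the right 8 of 16 are filled and below 0, while Pdk4 is at 1.02.

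Of 12 genes known to respond to fasting, FOXO1 or glucocorticoids, as Pdk4 does, 0 were called with DEHP in either genotype (median 0.06 in null and 0.12 in wild-type mice). Of all genes 0.471% were called in null and 3.86% in wild-type mice, so 0 of 12 does not set this list apart. Igfbp1, a liver-secreted growth factor binding protein raised by fasting, read 0.64 ± 0.14 in null mice (adjusted p = 0.0511) and 0.05 in wild-type mice (adjusted p = 0.899). The null difference was called with an offset of 50 (adjusted p = 0.0358), a filter on dim genes (adjusted p = 0.0209) or trend and robust priors (adjusted p = 0.0250), and read 0.55 without KO-121 (adjusted p = 0.117). Insig2, a regulator of sterol synthesis, read -0.02 in null mice and -0.39 ± 0.11 in wild-type mice (adjusted p = 0.0677). The Insig2 difference in wild-type mice was called without WT-59, after quantile normalization, with the dim filter, with trend and robust priors and with array weights, at adjusted p from 0.0267 to 0.0496. Under corn oil 1 of 12 was higher in null than in wild-type livers (0.642% of all genes were called as higher). This was Pck1, the cytosolic enzyme of gluconeogenesis (0.74 ± 0.14, adjusted p = 0.0140, but up to 0.0589 without KO-115, WT-53 or WT-54), named after its value was seen. Under DEHP 2 of 12 were higher in null than in wild-type livers, or 3 without KO-121, where 10.7% of all genes were called. The largest of these 12 differences was that of Igfbp1 (0.97).

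Ranked by Pearson correlation, the gene whose log2 values over the 15 arrays followed those of Pdk4 most closely was Phospho1, a phosphatase of phosphocholine (Pearson r = 0.902, Spearman rho = 0.85). Idh2 (0.890 and 0.794), the mitochondrial NADP-dependent isocitrate dehydrogenase, and Msln (0.877 and 0.814) came next. Adam11, Tuba8, Acot6, Gusb and Tmem243 completed the first 8, at r of 0.871 to 0.849. These correlations describe 15 arrays in 4 groups that differ in Pdk4, and the order depended on the array with muscle transcripts: without KO-121, 4 of the 8 stayed among the first 8 (Phospho1, Idh2, Adam11 and Tmem243, with Phospho1 at 0.907). These genes were picked over arrays that include the wild-type DEHP contrast, so their differences there are a description. In that contrast 4 of the 8 were called, the same 4, Phospho1 at 0.77 ± 0.14 (adjusted p = 0.00435), Idh2 at 0.33 ± 0.07 (adjusted p = 0.0106), Adam11 at 1.06 ± 0.11 (adjusted p = 4.56e-05) and Tmem243 at 0.29 ± 0.06 (adjusted p = 0.0190, lost without WT-53, WT-55 or WT-56). The other 4 were not called, Msln at 0.25 (adjusted p = 0.173), Tuba8 at 0.41 (adjusted p = 0.190), Acot6 at 0.20 (adjusted p = 0.127) and Gusb at 0.21 (adjusted p = 0.0786). The order also depended on the measure. Ranked by Spearman rho, the first 8 shared only 2 genes with those 8, Phospho1 and Gusb, and began with Fuca2 (0.896), Tpm1 (0.864) and Endod1 (0.851). After each group's mean was subtracted, the closest genes by Pearson r were others: Ptprz1 (0.912), Klk1b9 (0.904), Galt (0.892), Myl6 (0.887) and Olfr836 (0.876). Without KO-121 these 5 read 0.871 to 0.797, and only Ptprz1 stayed among the first 5, as the fourth. Over the 15 arrays the r of the other members with Pdk4 lay between -0.31 for Pdk3 and 0.46 for Pdp1, and over the 14 arrays without KO-121 it was -0.66 for Pdk3 and 0.13 for Pdp1.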

How the data were processed

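Liver RNA (300 ng per animal, per the labels' protocols) was amplified, labelled with biotin and hybridized to 1 single-colour array per animal. The intensity values are those deposited by the authors, positive and linear, and the similar medians of the arrays show a common scale. The sources used here do not give the normalization, the scanner or any batches. Log2 was taken with no offset. The platform annotation gave 1 symbol to 21789 of 35494 probe sets, more than 1 to 1621 and no symbol to 12084. For 999 genes with more than 1 probe set the brightest on average stood for the gene, leaving 19938 genes.

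The 4 group means were fitted together over the 15 arrays with limma 3.58.1 in R 4.3.3 (residual degrees of freedom 11, prior 4.68), with p adjusted over all genes by Benjamini-Hochberg at a threshold of 0.05. The fit was also run on simulated data with independent noise, in which some genes moved equally with DEHP in both genotypes. Those data held no genotype effect and no array with muscle transcripts, so they do not test these, and their outcome is not given here. Members were also compared by exact two-sided permutation over animals. Animals stand for themselves as replicates, and their number limits the precision. The members and gene lists were chosen with earlier results of these data known, so counts over them are descriptions. Named were the members, Ppara, up to 4 called genes per list in the DEHP contrasts or otherwise the 2 with the smallest p, and the genes most like Pdk4 by Pearson r. Dld, Pdhx, Bckdha, Pck1, Cpt1a, Acadm and Acot2 lay outside this rule and were named after their values were seen. So were single cell type markers and the genes named by Spearman rho. Lists of 10 cell types were summed. Alternatives were quantile normalization, median centring, an offset of 50, a filter on dim genes, fits of only the 2 groups, trend and robust priors, array weights, adjustment over all probe sets, and leaving out each animal. Promoter windows came from RefSeq (GRCm38.p6). Plots used Python 3.11.15 with pandas 2.3.3, numpy 2.4.6 and matplotlib 3.10.9.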

Additional observations from a re-analysis of the deposited data

How the results depend on the processing

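The Pdk4 rise with DEHP in wild-type mice kept its direction and its call under each alternative run. The higher Pdk4 in null over wild-type corn oil livers kept its direction but was no longer called after quantile normalization (1.002), with an offset of 50 (0.63), with trend and robust priors (1.02) or when p was adjusted over all probe sets (1.02). The count of members called there was then 0, and leaving out 1 animal gave 0.90 to 1.21 and 0 to 1 members. An offset also shrinks the wild-type DEHP difference, to 0.68. For null over wild type under DEHP, 1 member was called (Pdk1) with median centring, the filter on dim genes, trend and robust priors, array weights or 1 animal left out (0 to 1 members). The dim filter kept 4 of 6 members (not Pdk3 and Pdp1) of 9969 genes. The number of all genes called with DEHP in null mice, 94, became 32 with median centring, 276 with the offset, 427 with the dim filter, 1 with only the 2 groups, 293 with trend and robust priors, 56 with array weights and 9 to 168 without 1 animal. For the difference of the differences, 179 became 431 (offset), 570 (dim filter), 424 (trend and robust priors) and 61 to 299 (1 animal left out). For null over wild type under DEHP, 2133 became 1331 with only the 2 groups and 1019 to 1950 without 1 animal. It was 433 to 614 in place of 770 for DEHP in wild-type mice and 159 to 230 in place of 237 for null over wild type under corn oil. Fitting only the 2 groups ended the calls of Dlst and Foxo1 in wild-type mice. It also ended those of Dld, Lias, Bckdha, Dlst and Ppm1k between genotypes under DEHP, and of Hadhb under corn oil. Adjustment over all probe sets ended those of Dlst, Dbt and Foxo1 in wild-type mice, and of Pklr for the difference of the differences. Between genotypes that adjustment ended the calls of Lias and Ppm1k under DEHP and of Hadhb and Pck1 under corn oil. Median centring ended those of Dbt and Foxo1 in wild-type mice, of Ppm1k under DEHP and of Hadhb under corn oil. Quantile normalization ended those of Dlst in wild-type mice and of Bckdha between genotypes under DEHP. With the dim filter Lias was called in wild-type mice (adjusted p = 0.0476). The cause of these shifts was not tested.

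Signs turned only for differences near 0 that were not called. Pdk3 under DEHP, null over wild type, was -0.022 after quantile normalization, -0.014 with median centring and -0.062 to 0.12 without 1 animal. Pdk2 read -0.034 with median centring and -0.054 to 0.082 without 1 animal for the difference of the differences, and -0.090 to 0.046 for null over wild type under DEHP. The other ranges without 1 animal were, in wild-type mice, -0.082 to 0.0029 (Pdp1), -0.012 to 0.071 (Pdha1), -0.023 to 0.039 (Pdpr), -0.12 to 0.0028 (Ppm1k), -0.00016 to 0.022 (Bckdk) and -0.020 to 0.11 (Igfbp1). In null mice they were -0.025 to 0.24 (Pdk1), -0.044 to 0.15 (Pdp1), -0.079 to 0.23 (Pklr), -0.016 to 0.16 (Pparg) and -0.095 to 0.052 (Insig2), and for the difference of the differences -0.24 to 0.023 (Pdk1) and -0.0039 to 0.19 (Pdp1). Fits without KO-121 were chosen after seeing the data for the list counts and the genes like Pdk4. No paired analysis was possible because the groups share no animal numbers. Other probe sets of the members could not be tried, as each has 1. With 3 or 4 animals a group, small differences are not resolved. Pdk3 rests on a dim signal, and Pdp1 was also left out by the dim filter. The wild-type corn oil livers, the low group of both Pdk4 calls, read 45.2 to 71.1, against array medians of 44.4 to 47.5.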
